A study of Homo sapiens with 20 samples.

Results

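The 10 libraries described here measure what the MDM2 inhibitor Nutlin-3a did to nuclear RNA in HCT116 cells when no peptide was present. HCT116 is a colorectal carcinoma line that keeps wild-type p53. The compared groups are 5 Nutlin_H2O libraries, from cells kept for 3 hours in 0.1% DMSO with 10 µM Nutlin-3a, and 5 DMSO_H2O libraries, from cells kept for 3 hours in 0.1% DMSO alone. Both groups were first electroporated with water in the Neon system, and nuclei were isolated before RNA extraction, ribosomal RNA depletion and directional library preparation. They are 10 of the 20 libraries of the series, picked by their labels alone, and the other 10 held a stapled peptide and entered the estimate of the spread and, where a library was left out, that of the pair blocks. Experiment 1 gave 2 libraries per group and experiment 2 gave 3, and libraries with the same number within an experiment formed a pair, which made 5 pairs. The labels do not say whether replicates were separate cultures, so p-values here measure only the spread between these libraries.

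Depth over all gene rows ranged between 36717795 and 48933703 reads in the 4 libraries of experiment 1, and between 18787172 and 42318001 in the 6 of experiment 2. The share of structural RNA rows (ribosomal, 7SL, small nuclear and the like) was 22.0 to 36.8% in experiment 1, against 2.33 to 6.11% in experiment 2. Replicate 2 of Nutlin_H2O in experiment 1 stood apart. Its structural rows took 36.8% of reads, against 22.0 to 25.6% in the other 3 libraries of the experiment, and its rows spanning 50 kb or more, introns included, took 27.9% of the remaining reads, against 41.7 to 42.9%. It is called the short-gene library below, and calls of experiment 1 that are lost without it are named beside the genes. In 1667 rows the coordinates differ between the experiments, among them those of MDM2, ISCU, ASTN2, FRMPD2, ZNF423, FRAS1, LOC388436, HERPUD1 and LUCAT1, so levels of these genes are not compared between experiments. The epithelial adhesion gene EPCAM had 93.7 to 364 and the keratin KRT8 808 to 2002 scaled RPM (reads per 1000000 reads, scaled between libraries). Of the 13 colorectal epithelial markers 7 passed the filter on low levels, and the differentiation genes CDX1, CEACAM5 and CEACAM6 were at 0 in at least 1 library each. The leukocyte gene PTPRC reached at most 0.082 and the fibroblast collagen COL1A2 was listed at 0 in all 10. Other listed markers of non-epithelial cells were present. The blood cell marker CD68 had 3.81 to 29.9, the collagen COL1A1 13.8 to 72.3 and the neuron marker SYT1 9.14 to 504.

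p53 is a transcription factor that MDM2 binds and marks for degradation. Nutlin-3a occupies the p53 pocket of MDM2, so p53 protein accumulates and its target genes are transcribed. These targets stop the cell cycle, trigger apoptosis, repair DNA, alter metabolism and, through MDM2 itself, feed back on p53. Because nuclear RNA is rich in unspliced transcripts, levels below cover whole gene rows with their introns.

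p53 binds a pair of 10-base half-sites, each with the core CNNG. The sequences below show such pairs near the starts of genes that the results turn on. They were read from the RefSeq promoter table of GRCh38.p14, from 250 bases before to 50 bases after a listed start, on both strands, allowing a spacer of up to 3 bases and up to 3 mismatches in 20 positions, and capitals mark the half-sites. Overlap with other motifs was not examined.
DDB2: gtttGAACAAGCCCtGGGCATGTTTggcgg
LINC01021: gcccaGGGCTTGTCTGGGCATGCCCacagt
MDM2: gagctGGTCAAGTTCAGACACGTTCcgaaa
FAS: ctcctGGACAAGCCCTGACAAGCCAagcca
AEN: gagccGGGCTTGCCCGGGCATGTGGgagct
FDXR: ggcccGGGCAGGAGCGGGCTTGCCCtgcgg
SESN1: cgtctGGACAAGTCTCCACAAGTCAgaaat
GDF15: tgcacAGCCATGCCCGGGCAAGAACtc

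Coordinates given here cover each printed stretch with its lower-case flanks, and distances run to the first base of the pair. The DDB2 pair (chr11:47214975-47215004, plus strand) matched at all 20 positions around a 1-base spacer and began at base 6 of the transcript. The LINC01021 pair (chr5:27472160-27472189, plus strand) also had 0 mismatches and lay 127 bases upstream of the start; RefSeq names this gene PURPL. MDM2 (chr12:68808918-68808947, plus strand, 94 bases upstream), FAS (chr10:88991304-88991333, plus strand, 122 bases upstream) and AEN (chr15:88621301-88621330, plus strand, 34 bases upstream) had 2 mismatches each. FDXR (chr17:74872991-74873020, minus strand, 21 bases upstream), SESN1 (chr6:109009013-109009042, minus strand, 49 bases upstream) and GDF15 (chr19:18386181-18386207, plus strand, from base 29 of the transcript) had 3. A pair was found in 5.77% of the 27305 genes of the table and in 6.42% of the 11815 tested genes that matched it. Of the 176 listed p53 targets tested, 142 matched and 21.1% of these held a pair. The 52 genes that rose in experiment 1, described below, included 35 listed targets. Of the 52, 40 matched and 25.0% of these held a pair. It was 8.37% for the 251 that matched among the 317 genes that rose in experiment 2 in the fit without the short-gene library, close to the share of all tested genes. Distances are from starts listed by RefSeq, which can differ from those of the counted gene rows. The FDXR pair lay outside its counted row, and those of FAS and AEN lay inside theirs. A match is a description of letters in this window and not evidence of binding.

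Listed p53 targets led the genes that were higher with Nutlin-3a, by different amounts in the 2 experiments and from different starting levels. The gene lists were chosen with earlier results of these data known. Shares of listed genes here and below are therefore descriptions and not a test. In the fit of all 5 pairs no gene passed: limma called 0 of 15958 genes (0.0%) at an adjusted p under 0.05, with 559 higher (3.5%) and 601 lower (3.77%) at an unadjusted p under 0.05. limma-voom called 15, all higher, and library weights, whose estimation did not converge, called 26 higher and 5 lower. The smallest adjusted p was 0.0599, which TNFRSF10B and FAS had, and the 20 genes with an adjusted p under 0.1 were all higher with Nutlin-3a, 18 of them listed p53 targets. When the change was allowed to differ between experiments and then averaged, 51 genes rose (0.32%) and 0 fell, with 835 higher (5.23%) and 1430 lower (8.96%) at an unadjusted p under 0.05, and 37 of the 51 were listed targets. Without the short-gene library this average gave 61 higher (0.382%) and 2 lower (0.0125%), 40 of the 61 being among the 51 and 49 of the 61 being listed targets. In the fit of 5 pairs the count of 0 became 19 without replicate 3 of Nutlin_H2O in experiment 2, 7 without replicate 3 of DMSO_H2O in experiment 2 and 5 (0.0313%) without the short-gene library. In bulk nuclei, a change in the number of responding cells and a change in RNA per cell cannot be told apart.

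Counted without a test, 490 genes (3.07%) were higher with Nutlin-3a in all 5 pairs and 621 (3.89%) were lower. Of the 176 listed p53 targets that passed the filter, out of 198 listed, 56 were higher in all 5 pairs (31.8%) and 1 was lower. The listed targets had a median log2 change of 0.198 over the 5 pairs, against -0.017 for all genes tested, and 149 of 176 lay above 0, against 45.0% of all genes. At least 1.2-fold in every pair, 13 genes were higher (0.0815%) and 0 were lower. Listed targets made up 6 of the 13, among them CDKN1A, PLK3, PRKAB1, DRAM1 and ZNF337. The other 7 were the zinc exporter SLC30A1, the adhesion molecule PVRL4, the calcium channel CACNA1C, the homeobox gene HOXC6, the mitochondrial carrier SLC25A45, PRAM1 and LOC284080, several of them near 1 scaled RPM. With 1 pair left out, the 490 became 702 to 1636 and the 621 became 945 to 1853, the highest of both without pair 2 of experiment 1.

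**Figure D1:**
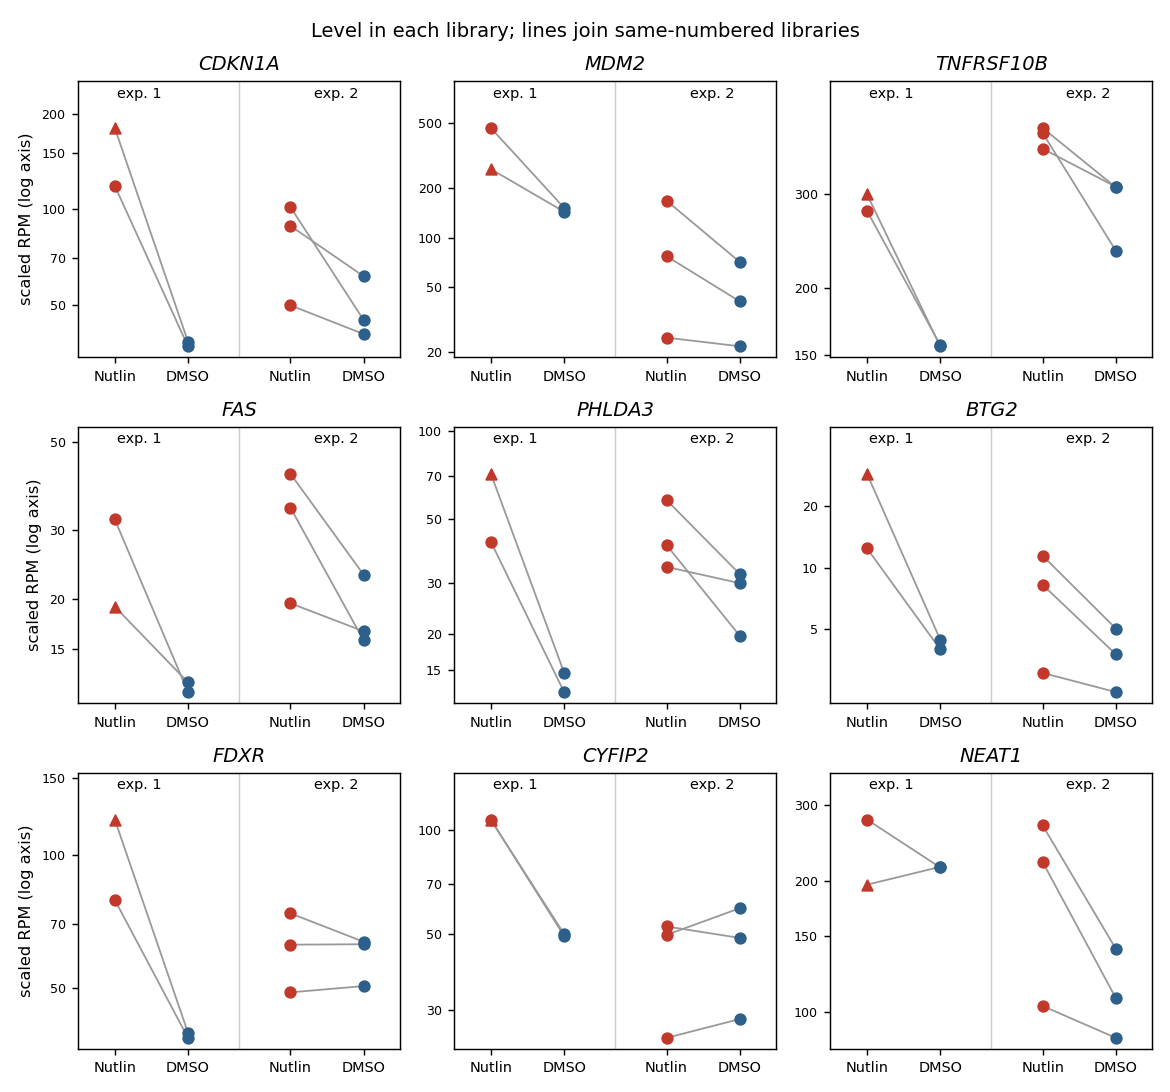
Level of 9 genes in each of the 10 libraries in scaled RPM (log axis), Nutlin_H2O in red left of DMSO_H2O in blue within each experiment, with lines joining the libraries of a pair and a triangle for the short-gene library. In experiment 1 both Nutlin points lie above both DMSO points in every panel except NEAT1, and in experiment 2 all 3 Nutlin points lie above all 3 DMSO points only for TNFRSF10B and PHLDA3 of these 9 genes.

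Among the cell cycle arrest genes, 5 of the 14 tested rose in experiment 1 (35.7%, against 0.326% of all genes). CDKN1A, the gene of the cell cycle inhibitor p21, had 118 and 180 scaled RPM with Nutlin-3a against 37.0 and 38.3 with DMSO in experiment 1, and 88.6, 102 and 49.8 against 61.4, 44.7 and 40.4 in experiment 2. The groups did not overlap in experiment 1 and overlapped in experiment 2, where every Nutlin library was still above its own partner. CDKN1A rose by 1.94 ± 0.20 (log2, SE) in experiment 1 (limma adjusted p = 0.000169). BTG2, an antiproliferative cofactor, had 12.4 and 28.6 against 3.998 and 4.46, then 8.24, 11.4 and 3.07 against 3.78, 5.05 and 2.47. It rose by 2.04 ± 0.26 in experiment 1 (limma adjusted p = 0.00103), the largest change of the listed targets there. The stress kinase PLK3 had 59.9 and 121 against 41.9 and 45.1, then 31.0, 55.5 and 68.2 against 20.2, 35.9 and 52.2, and was at least 1.2-fold higher in each pair. GADD45A and SERTAD1 were the other 2 that rose. PLK3 and SERTAD1 had 0.52 and 0.58 without the short-gene library and did not pass (limma adjusted p = 0.258 and 0.118). Over the 5 pairs the 14 genes had a median of 0.208 with 10 of 14 above 0.

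The feedback genes include MDM2, which gave 469 and 262 scaled RPM with Nutlin-3a against 152 and 144 with DMSO in experiment 1, and 76.9, 168 and 24.4 against 40.6, 70.8 and 21.6 in experiment 2. Its levels differed more between the pairs of experiment 2 than between the groups, and in every pair the Nutlin library was the higher one. MDM2 rose by 1.24 ± 0.21 in experiment 1 (limma adjusted p = 0.0153) and by 1.59 ± 0.22 there without the short-gene library (limma adjusted p = 0.00246). PPM1D, the phosphatase that dampens p53 signalling, had 106 and 75.6 against 54.6 and 49.9, then 60.0, 86.9 and 51.2 against 43.0, 64.9 and 50.4, and rose by 0.77 ± 0.14 in experiment 1 (limma adjusted p = 0.0176). Of the 11 feedback genes 2 rose in experiment 1 (18.2%, against 0.326% of all genes). In all 5 pairs 5 were higher (45.5%, against 3.07% of all genes), and the median was 0.267. The 18 tested genes of p53 and its partners had a median of -0.0305.

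Among the apoptosis genes, the death receptor TNFRSF10B had 278 and 299 scaled RPM with Nutlin-3a against 156 and 156 with DMSO in experiment 1, and 398, 389 and 364 against 308, 235 and 309 in experiment 2. The groups did not overlap in either experiment. TNFRSF10B shares its span with LOC286059 on the other strand, which had 0.413 RPM, and reads of the pair cannot be separated because no source used here says whether strand was kept in counting. FAS, the other classical death receptor, had 31.9 and 19.2 against 11.7 and 12.3, then 34.1, 41.5 and 19.6 against 15.8, 23.1 and 16.6, overlapping in experiment 2 only. PHLDA3, which restrains AKT, had 41.6 and 71.3 against 12.6 and 14.8, then 57.9, 40.5 and 34.1 against 32.2, 19.8 and 29.97, with no overlap in either. BBC3, which encodes the BH3 protein PUMA, had 15.8 and 28.2 against 6.32 and 5.41 in experiment 1 but 27.2, 27.6 and 29.9 against 17.7, 18.9 and 31.4 in experiment 2, where the third pair was not higher. In experiment 1, PHLDA3 rose by 1.96 ± 0.20, BBC3 by 1.77 ± 0.20, FAS by 1.01 ± 0.20 and TNFRSF10B by 0.89 ± 0.13 (limma adjusted p = 0.000169, 0.000365, 0.0372 and 0.00438). The decoy receptor TNFRSF10C (1.44), BAX (1.06), TP53I3 (0.91) and the nuclease AEN (0.87) rose there too, which made 8 of 22 (36.4%, against 0.326% of all genes). TNFRSF10C, at 3.2 RPM, overlaps LOC254896 on the same strand at 2.33 RPM. TP53I3, at 12.1 RPM, overlaps FAM228B on the other strand at 7.18 RPM. Reads of these overlapping rows cannot be separated either. AEN had 0.55 without the short-gene library and did not pass (limma adjusted p = 0.157). Of the list, 9 of 22 were higher in all 5 pairs (40.9%, against 3.07% of all genes).

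Of the 16 DNA repair targets tested 4 rose in experiment 1 (25.0%, against 0.326% of all genes). DDB2, which recognises ultraviolet lesions, had 104 and 105 scaled RPM with Nutlin-3a against 47.4 and 47.7 with DMSO in experiment 1, and 58.4, 80.6 and 53.1 against 30.5, 50.8 and 46.6 in experiment 2. The nucleotide excision repair gene XPC had 87.0 and 79.4 against 49.5 and 49.5, then 71.7, 81.97 and 58.2 against 48.9, 55.9 and 54.2. Neither gene's groups overlapped in either experiment. POLH, a lesion bypass polymerase, had 82.2 and 67.4 against 37.9 and 38.6, then 31.0, 43.1 and 38.0 against 17.0, 27.8 and 36.8. DDB2 rose by 1.13 ± 0.16, POLH by 0.95 ± 0.16 and XPC by 0.74 ± 0.12 in experiment 1 (limma adjusted p = 0.00212, 0.0124 and 0.00781), and the cytidine deaminase APOBEC3C rose by 0.80. APOBEC3C had 0.69 without the short-gene library and did not pass (limma adjusted p = 0.35). The list had a median of 0.102 over the 5 pairs and of 0.0458 in experiment 1, which became -0.141 without scaling between libraries and 0.289 without the short-gene library.

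Metabolism and autophagy targets gave 7 rises among 25 in experiment 1 (0.326% of all genes did). SESN2, a stress sensor that restrains mTORC1, had 36.4 and 57.6 scaled RPM with Nutlin-3a against 14.5 and 14.8 with DMSO, then 14.0, 41.9 and 39.5 against 10.0, 19.9 and 33.6. DRAM1, a lysosomal inducer of autophagy, had 28.7 and 22.1 against 13.0 and 13.2, then 12.1, 11.98 and 9.38 against 9.20, 7.04 and 7.63. The AMPK subunit gene PRKAB1 had 25.4 and 27.7 against 15.4 and 16.5, then 16.5, 22.9 and 14.4 against 11.3, 15.04 and 11.8. All 3 genes were higher in each of the 5 pairs, and only the groups of DRAM1 were free of overlap in experiment 2. SESN2 rose by 1.61 ± 0.21, DRAM1 by 0.92 ± 0.15 and PRKAB1 by 0.72 ± 0.14 in experiment 1 (limma adjusted p = 0.00103, 0.00781 and 0.0392), beside FDXR, TIGAR, NADSYN1 and DGKA at 0.63 to 1.31. PRKAB1 and NADSYN1 had 0.67 and 0.49 without the short-gene library and did not pass (limma adjusted p = 0.187 and 0.132). The related SESN1 had 19.3 and 8.38 against 6.97 and 5.86 and a change of 0.94 ± 0.26 in experiment 1, which did not pass (limma adjusted p = 0.108).

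Secreted and membrane proteins were led by GDF15, a stress cytokine, with 26.8 and 63.2 scaled RPM with Nutlin-3a against 13.5 and 14.9 with DMSO in experiment 1, and 288, 106 and 183 against 265, 47.7 and 156 in experiment 2. GDF15 rose by 1.51 ± 0.27 in experiment 1 (limma adjusted p = 0.0202), but without the short-gene library it had 0.94 ± 0.26 there and did not pass (limma adjusted p = 0.339). The heparan sulfatase gene SULF2 (1.14) and the tetraspanin gene CD82 (0.98) also rose, 3 of 28 with GDF15 (10.7%, against 0.326% of all genes). Of the 53 other direct targets 6 rose in experiment 1 (11.3%, against 0.326% of all genes), among them the iron-sulfur scaffold gene ISCU (0.64) and the adaptor gene TRAF4 (0.74). TRAF4 had 0.38 without the short-gene library and did not pass (limma adjusted p = 0.35). The zinc finger gene ZNF337 had 17.8 and 15.2 against 12.2 and 11.3, then 19.8, 17.7 and 19.5 against 12.9, 11.9 and 15.7. Its groups did not overlap in either experiment and its change was alike in both, at 0.47 ± 0.13 in experiment 1 and 0.49 ± 0.11 in experiment 2, neither of which passed (limma adjusted p = 0.108 and 0.323).

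Within experiment 1, 52 genes rose (0.326%) and 8 fell (0.0501%). The p53 lists held 35 of the 52, or 67.3%. The 198 genes listed are a selection, so genes outside the lists may still be known p53 targets. All 52 had a larger change in experiment 1 than in experiment 2, which is what choosing them in experiment 1 favours, with medians of 0.936 and 0.235. In experiment 2, whose libraries shared in the estimate of the spread but not in these changes, 42 of the 52 lay above 0, 31 of the 35 listed targets and 11 of the 17 others, against 8217 of all 15958 genes. Without the short-gene library 39 rose (0.244%) and 2 fell (0.0125%), and 31 of the 52 and 1 of the 8 were still called. The calls lost were those of 8 listed targets, 13 of the 17 other genes and 7 of the 8 falls. The count of 60 became 18 and 10 without replicates 1 and 2 of DMSO_H2O in experiment 1, and 9043 without replicate 1 of Nutlin_H2O, which leaves the short-gene library to stand for Nutlin-3a. It was 13 in a fit of the 10 libraries without peptide, and it was 0 when pairs were not blocked, when libraries were weighted and when the 8 libraries of experiment 1 were fitted alone. The calls of experiment 1 therefore draw on the spread measured over all 20 libraries.

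Of the 17 genes outside the lists that rose in experiment 1, CYFIP2, part of the WAVE complex that drives actin assembly, had 107 and 107 scaled RPM with Nutlin-3a against 49.3 and 49.97 with DMSO. It rose by 1.10 ± 0.11 (limma adjusted p = 0.000169), and by the same 1.10 ± 0.12 without the short-gene library (limma adjusted p = 0.000221). GRIN2C, a glutamate receptor subunit gene, had 22.3 and 29.3 against 6.97 and 7.51, and rose by 1.75 ± 0.21 (limma adjusted p = 0.000744). Its row (chromosome 17, 74842023 to 74859884, minus strand) ends 2613 bases from that of the p53 target FDXR on the same strand, and GRIN2C was higher in all 5 pairs while FDXR was higher in 3. ASTN2, known from neuronal migration, had 122 and 83.4 against 58.1 and 52.3. Without the short-gene library CYFIP2, GRIN2C, ASTN2 and FRMPD2 were still called and the other 13 were not, at 0.42 to 1.01 with limma adjusted p = 0.2 to 0.754. With that library, INPP5D, the SHIP1 phosphatase gene, rose by 1.22, KANK3 by 1.11, FRMPD2 by 1.07, ZFPM1 by 0.93, ZNF423 by 0.92, CDC42BPG by 0.89, ASTN2 by 0.87, RRAD by 0.86, ADAMTS7 by 0.84, the noncoding HEIH by 0.81, TSKU by 0.78 and ZBTB7B by 0.66. RRAD, which encodes a small GTPase, lies 9292 bases from the listed target CES2. HEIH, at 5.37 RPM, overlaps LINC00847 on the other strand at 3.57 RPM, so its reads cannot be assigned. The last 3 of the 17 are small RNA rows inside longer genes on the same strand, so their reads cannot be separated: MIR3189 in GDF15, MIR4779 in IMMT and SNORD18A in RPL4.

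The 8 genes that fell in experiment 1 were GRAPL, CYP4Z2P, PKIB, CCDC112, MKX, FRAS1, VSNL1 and F3. F3, the tissue factor gene that starts coagulation, had 96.3 and 90.9 scaled RPM with Nutlin-3a against 138 and 129 with DMSO, and 58.4, 53.5 and 88.4 against 46.7, 41.6 and 77.4 in experiment 2. It fell by 0.51 ± 0.10 on the log2 scale in experiment 1 (limma adjusted p = 0.041), while experiment 2 had 0.29 ± 0.08. F3 is among the genes that rose in experiment 2 in the fit without the short-gene library, described below. The difference between the experiments was -0.80 ± 0.13 with all libraries and did not pass there (limma adjusted p = 0.0526). Without the short-gene library this difference was -0.81, and F3 was among the genes that passed downward. That fit leaves 1 Nutlin_H2O library in experiment 1. F3 had -0.52 in experiment 1 without the short-gene library and did not pass (limma adjusted p = 0.0518), and of the 8 GRAPL alone was still called. GRAPL had 0.741 and 54.4 against 197 and 87.2 in experiment 1, with under 1 scaled RPM in every library of experiment 2. It spans LOC388436 and LOC79999 on the other strand, at 97.8 RPM each, so its reads cannot be assigned, and its DMSO libraries differ from each other as well. GRAPL had -6.13 without the short-gene library, against -3.99 with it. Of the other 6, the basement membrane gene FRAS1 had 367 and 224 against 492 and 479, and in all 6 the short-gene library was the lowest of the 4.

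Within experiment 2, limma called 0 genes in either direction (0.0%), with 942 higher (5.9%) and 925 lower (5.8%) at an unadjusted p under 0.05. Its fit shares the estimate of the spread with experiment 1. Without the short-gene library, which is not in experiment 2, 317 genes rose (1.99%) and 223 fell (1.4%), and without its fellow replicate 1 the figures were 315 and 226. Without 1 of the other 8 libraries without peptide the sum was 0 to 5. Library weights gave 482 and 519, and the 6 libraries of experiment 2 without peptide gave 112 and 50. The 12 libraries of experiment 2 alone called 0, with a smallest adjusted p of 0.0533 and 1671 higher (10.5%) and 1648 lower (10.3%) at an unadjusted p under 0.05. Leaving out a library of experiment 1, or all of them, left the fold changes of experiment 2 as they were and altered the estimate of the spread. The calls that follow hold for the fit without the short-gene library.

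In that fit, 30 of the 176 listed p53 targets tested rose, against 1.99% of all genes. Of the same 176, 1 fell, the transcriptional coregulator gene SERTAD1, against 1.4% of all genes. The rises had a median of 0.379 and the falls of -0.327. Of the 317 genes, 15 had also risen in experiment 1, and all 15 were listed targets: CDKN1A, BTG2, PLK3, MDM2, PHLDA3, FAS, TNFRSF10B, AEN, DDB2, XPC, POLH, SESN2, PRKAB1, DRAM1 and ZNF79. CDKN1A rose by 0.66 ± 0.14 and MDM2 by 0.78 ± 0.14 (limma adjusted p = 0.0305 and 0.0199). TP53INP1, which promotes autophagy and cell death, had 47.9, 51.3 and 18.6 scaled RPM with Nutlin-3a against 22.7, 21.8 and 15.1 with DMSO, and rose by 0.86 ± 0.15 (limma adjusted p = 0.0199). SESN1 had 14.1, 29.8 and 10.1 against 7.06, 12.5 and 9.24 and rose by 0.77 ± 0.16 (limma adjusted p = 0.0319). The groups of both overlapped, and pair 3 had the smallest difference in each. APAF1 (0.37), which forms the apoptosome, and the death receptor TNFRSF10A (0.26) rose in this fit and not in experiment 1.

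Long noncoding p53 targets were among the larger rises of experiment 2. The 4 named here were picked after their values were seen. NEAT1, the scaffold RNA of paraspeckles, had 221, 269 and 104 scaled RPM with Nutlin-3a against 108, 140 and 87.4 with DMSO in experiment 2, and 277 and 197 against 215 and 216 in experiment 1. LINC01021 had 5.86, 11.1 and 5.48 against 3.23, 3.88 and 3.96, and 4.01 and 1.91 against 1.68 and 1.83. LINC01021 was higher in all 5 pairs, and NEAT1 in every pair but that of the short-gene library. LINC01021 rose by 0.87, NEAT1 by 0.74, LINC00475 by 0.69 and MIR22HG by 0.56 in experiment 2 without the short-gene library (limma adjusted p = 0.0249, 0.0197, 0.0256 and 0.0197). These are 4 of the 7 listed long noncoding genes that passed the filter, out of 17 listed, against 1.99% of all genes. In experiment 1, 0 of the 7 rose, against 0.326% of all genes. For NEAT1 the difference between experiments was -0.62 ± 0.23 and did not pass (limma adjusted p = 0.108). Medians of the 7 were 0.284 and -0.136 in pairs 1 and 2 of experiment 1 and 0.652, 0.535 and 0.242 in the pairs of experiment 2.

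Outside the lists, 287 genes rose in that fit. The vitamin D hydroxylase gene CYP2R1 had 21.4, 18.2 and 23.1 scaled RPM with Nutlin-3a against 14.96, 8.93 and 18.1 with DMSO and rose by 0.61 ± 0.10 (limma adjusted p = 0.0197), with -0.30 ± 0.17 in experiment 1. LUCAT1, a stress-induced noncoding RNA, had 5.99, 6.55 and 10.98 against 3.38, 3.20 and 7.76 and rose by 0.72 ± 0.14 (limma adjusted p = 0.0256). SLC30A1, which exports zinc, had 146, 93.9 and 63.0 against 106, 56.0 and 48.6 in experiment 2, and 72.4 and 92.5 against 58.0 and 59.9 in experiment 1. It rose by 0.52 ± 0.10 in experiment 2 (limma adjusted p = 0.0256) and was at least 1.2-fold higher in each of the 5 pairs. The hypoxia- and stress-responsive repressor gene BHLHE40 rose by 0.44 ± 0.10 (limma adjusted p = 0.0377) and was likewise higher in all 5 pairs. These 4 genes were named after their values were seen.

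The 223 falls of experiment 2 were 1.4% of all genes. Most of the genes named in this paragraph were picked after their values were seen. TUBA1B, an alpha-tubulin gene, had 762, 1914 and 1055 scaled RPM with Nutlin-3a against 1112, 2704 and 1215 with DMSO, and fell by 0.42 ± 0.09 on the log2 scale (limma adjusted p = 0.0369). In experiment 1 it had 792 and 1216 against 727 and 773, the opposite direction. KRT8 (-0.39), the glycolytic genes ALDOA and ENO1 and the ribosomal protein genes RPL14 (-0.36) and RPL19 (-0.34) fell too, the last 2 being the only falls among 74 cytosolic ribosomal protein genes. Of 55 cell cycle genes 7 fell and 0 rose, against falls in 1.4% and rises in 1.99% of all genes: CDC20, PLK1, FEN1, MCM2, MCM5, MCM7 and TK1. TK1, a thymidine kinase of S phase, had 81.4, 253 and 113 against 123, 343 and 128. The histone gene HIST1H4C had 2.95, 8.42 and 2.05 against 4.77, 9.80 and 5.14 and fell by 0.66 ± 0.12 (limma adjusted p = 0.0199). TRIM40 passed with the largest fall because it had 10.3 and 4.72 in replicates 1 and 3 of DMSO_H2O and at most 0.0256 in the other 8 libraries, a difference between libraries of the same group as well.

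The 540 calls of experiment 2 followed gene span. Genes that rose had a median span of 44100 bases and genes that fell one of 6549, against 20602 for all genes tested. Under 2 kb 1 rose and 43 fell of 1627 genes tested, and from 2 to 10 kb 34 and 89 of 3642. From 10 to 50 kb the counts were 136 and 69 of 6309, and from 50 to 200 kb 114 and 18 of 3505. From 200 to 500 kb they were 26 and 3 of 677, and at 500 kb or more 6 and 1 of 198. In pair 1 of experiment 1, 180 of the 317 lay above 0 (56.8%, against 41.8% of all genes) and 143 of the 223 below 0 (64.1%, against 58.1% of all genes). Its libraries shared in the estimate of the spread behind these calls. A correction for the trend with span left 0 calls in experiment 2 over all libraries, as without it. The part of span in these calls was not tested further.

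**Figure D2:**
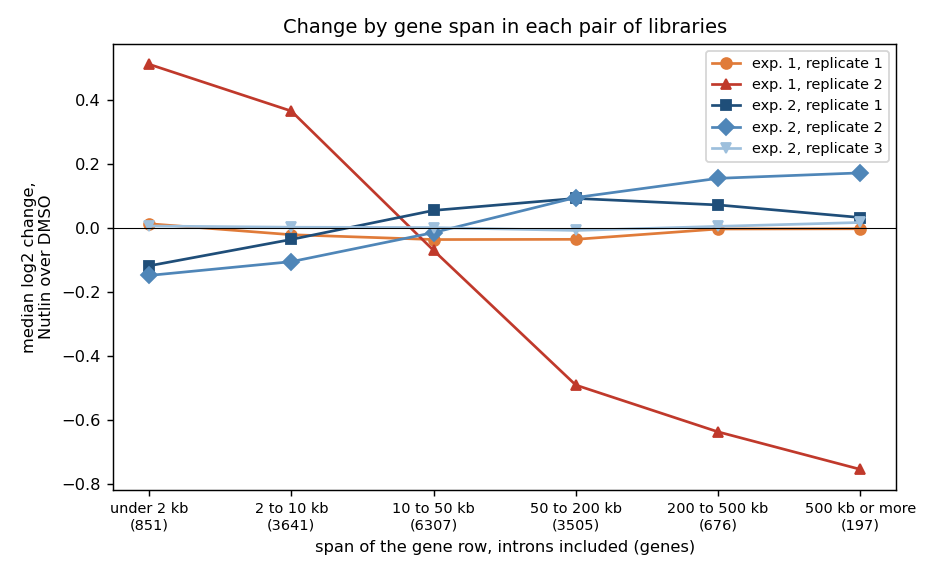
Median log2 change, Nutlin_H2O over DMSO_H2O, of genes grouped by the span of their row (number of genes in brackets), one line per pair. Replicate 2 of experiment 1, the pair of the short-gene library, runs from 0.511 under 2 kb to -0.753 at 500 kb or more, replicates 1 and 2 of experiment 2 run the other way within -0.148 and 0.172, and the other 2 pairs stay near 0.

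Across all genes the pairs thus differed in how the change varied with span. In pair 2 of experiment 1 the median was 0.511 under 2 kb, -0.49 from 50 to 200 kb and -0.753 at 500 kb or more. Pair 1 of experiment 1 stayed between -0.036 and 0.0133 over the 6 span classes. In experiment 2, pair 2 had -0.148 under 2 kb and 0.172 at 500 kb or more, pair 1 had -0.118 and 0.0328, and pair 3 stayed between -0.00759 and 0.0173. The listed p53 targets carried the same slope in the pair of the short-gene library. Their median there was 0.797 for the 53 targets under 10 kb, 0.436 for the 86 from 10 to 50 kb and -0.106 for the 37 of 50 kb or more. In pair 1 of experiment 1 the 3 classes had 0.376, 0.295 and 0.284, in pair 1 of experiment 2 0.172, 0.169 and 0.188, in pair 2 0.133, 0.26 and 0.216, and in pair 3 0.0274, 0.066 and 0.0143. Long targets such as ZMAT3, an RNA-binding regulator with a span of 50528 bases, had 58.3 and 30.3 scaled RPM with Nutlin-3a against 35.7 and 32.6 with DMSO in experiment 1, so that the short-gene library was the lowest. TP53INP1 had 18.5 and 9.40 against 9.58 and 8.92. With scaling between libraries left out, the median of all genes in experiment 1 was -0.209, against -0.0448 with it, and that of the listed targets was 0.193 in experiment 1 and 0.218 in experiment 2.

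**Figure D3:**
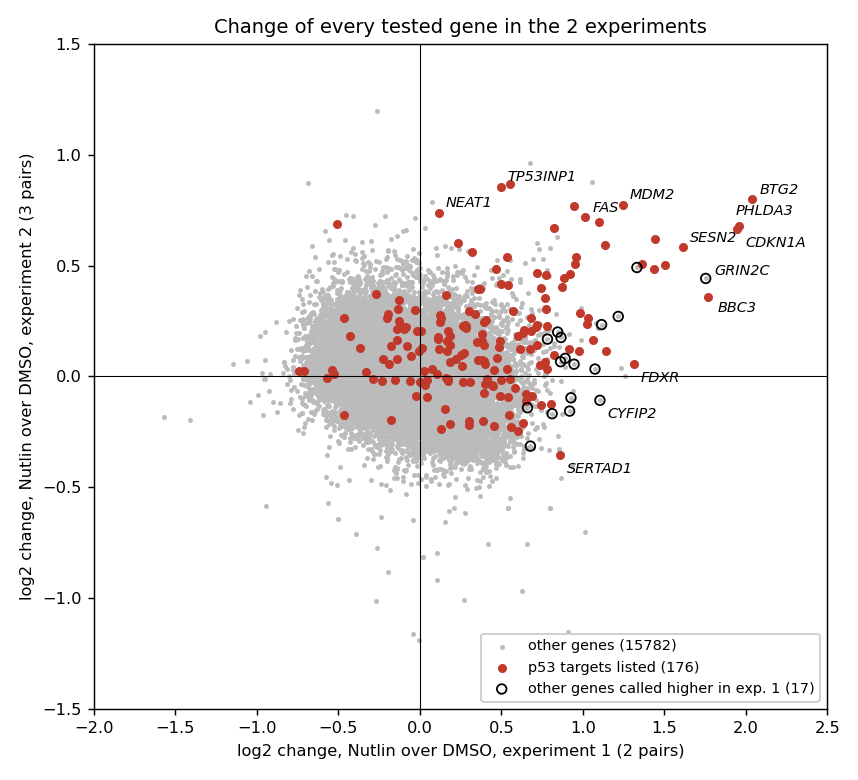
log2 change of the 15958 tested genes in experiment 1 (x axis, 2 pairs) and experiment 2 (y axis, 3 pairs), Nutlin_H2O over DMSO_H2O, with the 176 listed p53 targets in red, the 17 other genes that rose in experiment 1 circled, and 15 points outside the axes. Most red points lie right of 0 and above 0, SERTAD1, CYFIP2 and FDXR lie right of 0 near or below 0 on the y axis, and NEAT1 lies high near 0 on the x axis.

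The experiments shared no library, so their changes can be set side by side. Across the 15958 genes the changes of experiments 1 and 2 had Pearson's r = -0.222, and across the 176 listed targets r = 0.397; genes of a sample share its library, depth and span trend, so these are descriptions. The difference between the experiments was tested directly and passed for 3 genes (0.0188%), all with the larger change in experiment 1. CYFIP2 differed by 1.21 ± 0.14 (limma adjusted p = 0.00285), with 49.7, 52.5 and 24.9 scaled RPM with Nutlin-3a against 59.4, 48.7 and 28.3 with DMSO in experiment 2 and a change of -0.11 ± 0.09 there. FDXR, the mitochondrial ferredoxin reductase gene, had 79.3 and 121 against 38.6 and 39.6 in experiment 1 and 48.9, 73.9 and 62.8 against 50.6, 63.7 and 62.9 in experiment 2, a difference of 1.26 ± 0.19 (limma adjusted p = 0.0405). SERTAD1 had 23.9 and 38.5 against 16.02 and 17.0, then 103, 23.0 and 83.3 against 150, 26.7 and 103, a difference of 1.21 ± 0.19 (limma adjusted p = 0.0405). For SERTAD1 the 2 groups separated in experiment 1 and each Nutlin library lay below its partner in experiment 2. Without the short-gene library 1 gene passed upward and 2 downward, and CYFIP2 was still called at 1.21 (limma adjusted p = 0.00134), while FDXR at 1.03 and SERTAD1 at 0.94 did not pass (limma adjusted p = 0.0518 for each). The count became 8747 without replicate 1 of Nutlin_H2O in experiment 1, 5 without replicate 1 of DMSO_H2O there, 1 without replicate 1 or 3 of Nutlin_H2O or replicate 1 of DMSO_H2O in experiment 2, and 0 without the pair blocks.

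Averaged over both experiments without the short-gene library, 12 genes outside the lists rose. PTCHD4, a Patched-related membrane protein gene, had 23.4 and 11.1 scaled RPM with Nutlin-3a against 10.1 and 8.67 with DMSO in experiment 1, and 9.31, 3.70 and 2.28 against 6.36, 1.55 and 2.20 in experiment 2. It rose by 0.86 ± 0.14 (limma adjusted p = 0.00428) and was higher in all 5 pairs. SUSD6 had 48.4 and 35.3 against 28.7 and 27.0, then 5.25, 7.30 and 2.80 against 3.73, 4.85 and 3.00, and rose by 0.53 ± 0.10 (limma adjusted p = 0.0149). The choline transporter-like gene SLC44A5 rose by 0.57 ± 0.09 and PGAP1, which remodels GPI anchors, by 0.52 ± 0.10 (limma adjusted p = 0.00329 and 0.0188), each with the short-gene library as the lone Nutlin library below its partner. Of the 2 falls, GRAPL is described above and SERTAD3, a relative of SERTAD1, fell by 0.47 ± 0.10 (limma adjusted p = 0.0343). These genes were named after their values were seen.

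**Figure D4:**
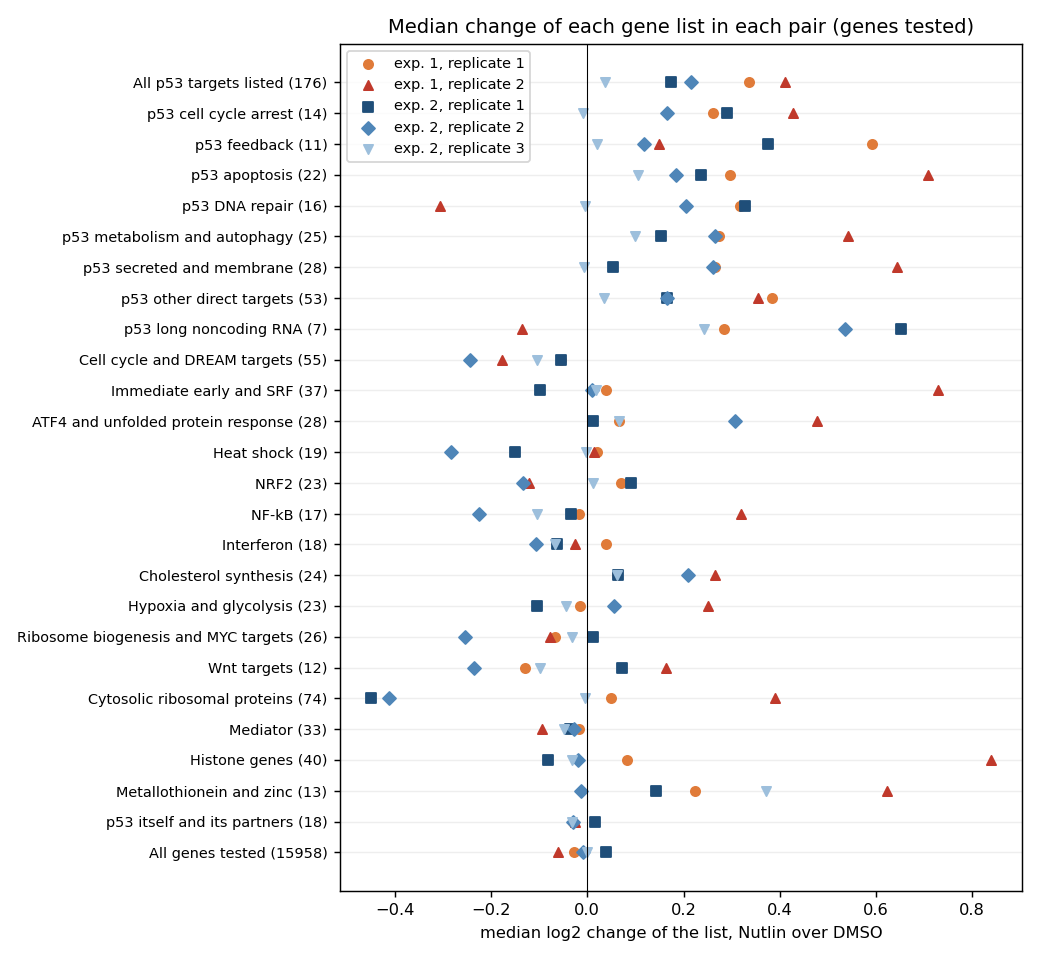
Median log2 change, Nutlin_H2O over DMSO_H2O, of each gene list in each of the 5 pairs (number of tested genes in brackets), with all genes tested at the bottom. All 5 points of the 176 listed p53 targets lie above 0, from 0.0371 to 0.41, all 5 of the cell cycle list lie below 0, and the pair of the short-gene library is the highest point of the histone and immediate early lists.

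Cell cycle genes, many of them repressed by the DREAM complex downstream of p21, were lower by small amounts. Their median was -0.117 over the 5 pairs, with 5 of 55 above 0, and it was -0.148 in experiment 1, with 20 of 55 above 0, and -0.121 in experiment 2. The median of experiment 1 was -0.0615 without the short-gene library. In all 5 pairs 14 of the 55 were lower (25.5%, against 3.89% of all genes) and 0 were higher, among them CCNB1, CDC25A, CDC25C, AURKA and TOP2A, and 0 of 55 passed in the fit of 5 pairs. BUB1B, a spindle checkpoint kinase gene, had 105 and 66.7 scaled RPM with Nutlin-3a against 106 and 105 with DMSO, then 26.7, 135 and 85.97 against 27.7, 158 and 97.5. MCM10, a replication initiation factor, had 68.1 and 62.8 against 72.8 and 72.4, then 12.8, 76.9 and 19.8 against 15.8, 94.2 and 22.0. Both overlapped between groups in experiment 2, with log2 changes of -0.23 ± 0.09 and -0.21 ± 0.07. SLBP, the histone stem-loop binding protein, was outside the lists and lower in all 5 pairs, with 75.5 and 76.8 against 93.7 and 85.997, then 87.4, 141 and 87.3 against 98.5, 181 and 99.7. AXIN2, a Wnt feedback gene, was also lower in all 5, with 13.5 and 11.8 against 17.0 and 17.2, then 79.2, 29.1 and 34.3 against 92.7, 40.4 and 39.3 (log2 -0.35 ± 0.10, limma adjusted p = 0.548).

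Some other lists had medians of opposite sign in the 2 experiments. The 74 cytosolic ribosomal protein genes had medians of 0.213 in experiment 1 and -0.282 in experiment 2, where 0 of 74 lay above 0, and per pair 0.0491, 0.391, -0.449, -0.413 and -0.00481. The 40 histone genes had 0.492 and -0.0454, and the 37 immediate early genes 0.401 and -0.0285, the last of which became 0.0452 without scaling between libraries. In both lists the pair of the short-gene library gave the highest median, 0.84 and 0.729. Without that library the medians of experiment 1 were 0.051 for ribosomal protein, 0.148 for histone and -0.00198 for immediate early genes. The 28 genes of the ATF4 and unfolded protein response had a median of 0.181, with 6 higher in all 5 pairs (21.4%, against 3.07% of all genes). Without the short-gene library the median of the 28 was 0.128, and in experiment 1 it went from 0.229 to 0.0815. Among the 6 were DDIT3, HSPA5, HERPUD1 and SESN2, which is also a listed p53 target. DDIT3, the CHOP transcription factor gene, had 3.37 and 5.43 scaled RPM with Nutlin-3a against 2.26 and 3.31 with DMSO, then 13.2, 13.6 and 51.2 against 11.3, 9.61 and 48.7. The 24 cholesterol synthesis genes had 0.0885, with 6 higher in all 5 pairs (25.0%, against 3.07% of all genes). The 13 metallothionein and zinc genes had a median of 0.0848, which became 0.339 without the short-gene library. In experiment 1 their median went from 0.364 to 0.792 without that library. The metallothionein gene MT1F had 55.8, 1.497 and 98.5 scaled RPM with Nutlin-3a against 1.94, 0.971 and 2.10 with DMSO in experiment 2. With Nutlin-3a MT1F was high in replicates 1 and 3 only (log2 3.41 ± 1.29, limma adjusted p = 0.374). The lists of heat shock, NRF2, NF-kB, interferon, hypoxia and glycolysis, Wnt, Mediator and ribosome biogenesis genes had medians between -0.0985 and 0.06.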

How the data were processed

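The values of 20 nuclear RNA-seq libraries were used as the authors deposited them, 26485 gene rows per experiment. The submitters' processing notes name HISAT2, bedtools, limma and hg38 but no versions. Per the values, the deposited unit is another than RPM: RPM divided by the row's end minus its start over 1000. This was undone, and all values came out as whole reads at a tolerance of 0.001. In 1667 rows the coordinates differ between the tables.

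RPM was scaled by trimmed mean of M values. For 15958 genes averaging 0.5 RPM or more, log2(scaled RPM + 0.5), which understates folds of low genes, was fitted with limma 3.58.1 (R 4.3.3) with a trend. Benjamini-Hochberg adjustment covered all genes (call: under 0.05). The 5 pairs were blocks: deviations of libraries with the same number correlated at 0.349 to 0.921. Experiments were fitted as 8 group means with these blocks. Named genes were called genes, genes moving alike in all pairs, up to 4 per list by p and a p53 panel. Others were chosen after their values were seen, not all of them marked so where they are named. The members and lists were chosen with earlier results of these data known. Alternatives covered scaling, filters, pseudocounts, voom, weights, span, blocks and each library left out. The procedure was tested on simulated data. Plots were drawn in Python 3.11.15 (matplotlib 3.10.9). SEs are between libraries and include counting error. Some listed genes are not reported here.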

Additional observations from a re-analysis of the deposited data

Results flagged for a closer look

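The change with Nutlin-3a differed between the 2 experiments, by a test of the difference itself, for 3 genes. CYFIP2 changed by 1.21 more on the log2 scale in experiment 1 than in experiment 2 (limma adjusted p = 0.00285), and was higher in 2 of 2 pairs of experiment 1 and 1 of 3 pairs of experiment 2. FDXR differed by 1.26 (limma adjusted p = 0.0405), higher in 2 of 2 and 1 of 3 pairs. SERTAD1 differed by 1.21 (limma adjusted p = 0.0405), higher in 2 of 2 and 0 of 3 pairs. Without replicate 2 of Nutlin_H2O in experiment 1, CYFIP2 was still called at 1.21, and FDXR at 1.03 and SERTAD1 at 0.94 were not (limma adjusted p = 0.0518 for each). What differs between the experiments besides the Nutlin-3a response, structural RNA share and row composition included, cannot be told apart from it. Groups of 2 and 3 libraries were too small to test for outlying samples.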

How the results depend on the processing

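Counts of called genes moved as follows. For the 5 pairs, 0 became 15 with limma-voom, 31 with library weights and 51 for the mean of both experiments, and, chosen after seeing the data, 63 for that mean without the short-gene library and 69 with the span trend removed; leaving out 1 library gave 0 to 19. For experiment 1, 60 became 12 without scaling, 96 at a pseudocount of 5, 0 without the replicate block, 13 with the 10 libraries without peptide, 0 with weights and 0 with experiment 1 alone (chosen after seeing the data), and 10 to 9043 with 1 library left out. For experiment 2, 0 became 1001 with weights and 162 with its 6 libraries without peptide (chosen after seeing the data), and 0 to 541 with 1 library left out. For the difference, 3 became 0 without scaling, 6 with median of ratios, 6 without structural rows, 5 at a filter of 2 RPM, 5 without a filter, 9 at a pseudocount of 5, 11 with the span trend removed, 0 without the replicate block, 1 with the 10 libraries and 0 with weights, and 1 to 8747 with 1 library left out. Genes higher in all pairs were 702 to 1636 and lower 945 to 1853 with 1 pair left out. Causes were not tested. Of 4645 values for single genes, 3763 kept their direction and side of the threshold, 298 passed only in the alternative, 584 passed only in the main fit and 0 reversed.

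Experiment 1 has 2 libraries per group and 1 of 4 libraries stands apart, experiment 2 is as shallow as 18787172 reads, and low genes such as LINC01021 rest on few reads.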
